A study of Drosophila melanogaster with 12 samples.

Results

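The p53 protein was mapped on chromatin of adult heads and of embryos of the fly Drosophila melanogaster, and the 317 peaks found in heads only are described here. They were chosen by the authors' peak calls, as the peaks of the head list that share not a single base with a peak of the embryo list. The head list holds 392 peaks, of which the other 75 met an embryo peak and are called shared. The embryo list holds 135 peaks, of which 62 met no head peak. Because the members were selected on these calls, their folds and q-values below are a description and were not tested.

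p53 is a transcription factor that binds DNA in a sequence-specific way and acts after DNA damage, when it switches on genes of cell death and DNA repair. In the fly embryo its best known targets are the cell death genes reaper, hid, grim and sickle. The adult head holds mostly neurons, glia, fat body and muscle, whose cells have largely stopped dividing.

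The wild type was the yw strain and the mutant carried p535A-1-4, known as a deletion allele of p53. The strain tag in the authors' peak names differs from that allele name, so which mutant gave the chromatin background is taken from the labels. RNA was sequenced from mock-treated and irradiated (40 Gy) flies of both strains. Adults were 1 to 2 weeks old and their heads, labelled as mixed, were taken 3 h after treatment. Embryos aged 3 to 4 h were treated and then kept for 1.5 h. Chromatin came from heads of both strains and from embryos of 4.5 to 5.5 h, with no radiation treatment named, and was precipitated with 2 µg of an antibody against p53. The 12 samples, 8 of RNA and 4 of chromatin, are each the only library of their group. No test across libraries could therefore be made, differences have no replicate check, and genes or peaks are not replicates.

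The depth of the RNA libraries, read from the steps in the deposited FPKM (fragments scaled by transcript length and library size), was 10.3 to 13.7 M fragments in heads and 19.0 to 22.8 M in embryos. The depth of the chromatin libraries is unknown, so a peak listed in heads and not in embryos can lie below the detection limit of the embryo libraries, and this was not tested. The tissue labels met their markers, with summed photoreceptor markers at 10071 to 12015 FPKM in heads and 2.43 to 3.80 FPKM in embryos, and summed zygotic patterning markers at 6.93 to 7.66 and 154 to 196 FPKM. The p53 transcript (3R:23049657-23054082 in dm6) stood at 11.7 FPKM in mock and 13.3 FPKM in irradiated wild-type heads, against 0.532 and 0.549 FPKM in mutant heads. In embryos it stood at 25.9 and 54.5 FPKM in the wild type and at 0.700 and 0.340 FPKM in the mutant. Both tissues thus matched their strain labels.

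Head-only peaks were mostly modest. Their fold of wild-type over mutant chromatin, the authors' value for each peak, had a median of 2.89, with quartiles of 2.37 and 3.86 and a range of 1.44 to 14.5. Shared peaks in the same head list had a median fold of 3.28 and an upper quartile of 7.94. Head-only peaks had a median width of 297 bp, against 391 bp for shared peaks. The mutant served as the background of the peak calls, so strain differences in DNA and bound p53 cannot be told apart in a fold.

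The summits gathered at transcript starts. Of the 317 summits, 91 (28.7%) lay within 100 bp of an annotated start, a zone that holds 3.32% of the bases of the genome, and 165 (52.1%) lay within 500 bp, against 13.7% of bases. Shared peaks had 17.3% of summits within 100 bp and 41.3% within 500 bp of a start. Embryo-only peaks had 3.23% and 16.1%, near the shares of the genome. Within 500 bp, 83 head-only summits lay upstream of the start and 82 at or downstream of it, and the median offset was -4 bp.

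**Figure D1:**
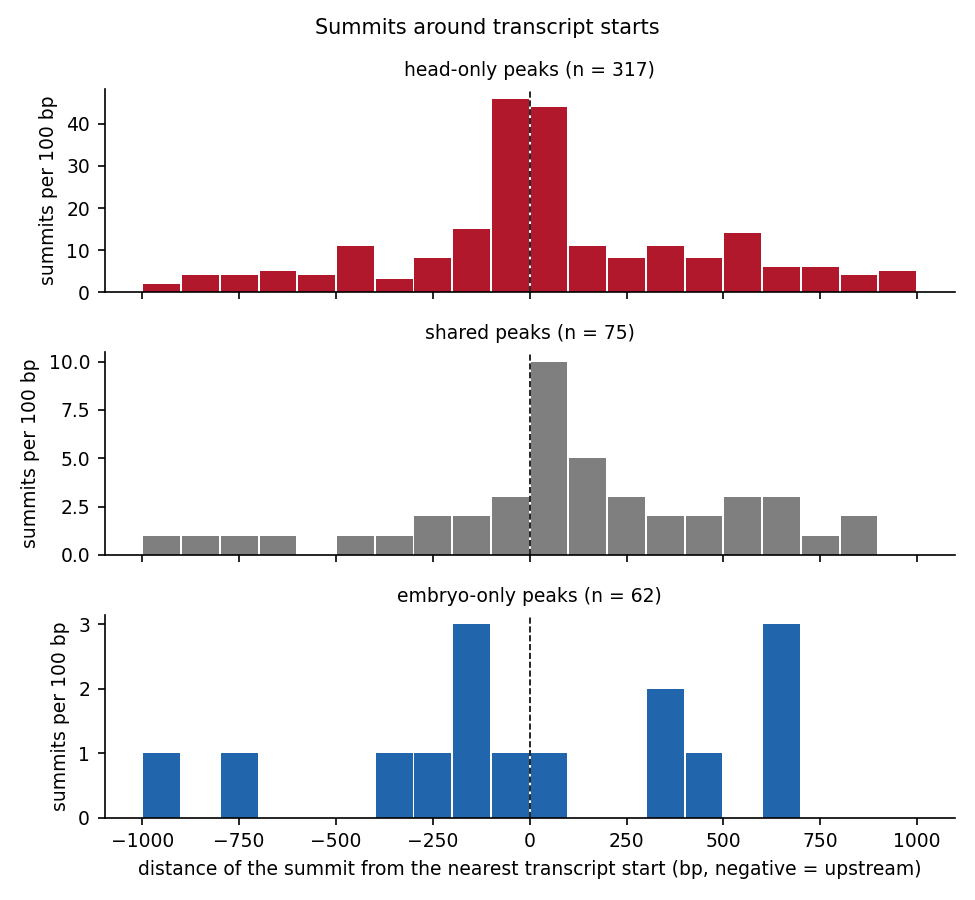
Number of peak summits per 100 bp (vertical axis) by distance from the nearest annotated transcript start in bp (horizontal axis, negative upstream) for head-only, shared and embryo-only peaks, each panel with its own vertical scale. Head-only summits pile up on both sides of the start, with 46 in the 100 bp before it and 44 in the 100 bp after it.

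By annotation, 78 head-only summits (24.6%) fell in a 5′ UTR, 142 (44.8%) in an intron, 74 (23.3%) between genes, 10 (3.15%) in a coding exon, 6 (1.89%) in a 3′ UTR and 7 (2.21%) in a non-coding exon. The 5′ UTRs make up 3.41% and introns 43.1% of bases. Coding exons, which make up 16.9% of bases, held 25.3% of shared and 37.1% of embryo-only summits. Head-only peaks thus stood below the genome share in coding exons and the embryo lists above it. Only 2 head-only peaks met an annotated transposable element, against 5 of the 62 embryo-only peaks. The share of summits at starts varied with the fold: of the 79 peaks with folds of 3.90 or more, 30 (38.0%) had their summit within 500 bp of a start, against 54.4% to 59.5% in 3 groups of like size with lower folds.

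**Figure D2:**
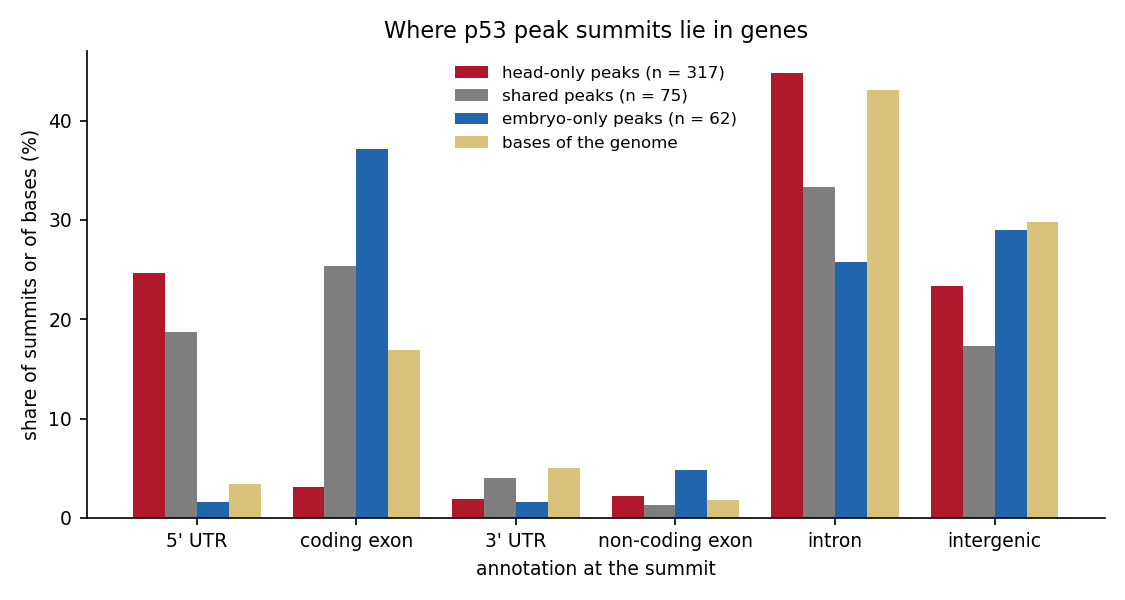
Share of summits in percent (bars from 0) by annotation class for head-only, shared and embryo-only peaks, beside the share of genome bases in each class. Head-only peaks reach 24.6% in 5′ UTRs and 3.15% in coding exons, where 3.41% and 16.9% of bases lie.

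The X chromosome held 96 of the 317 head-only peaks (30.3%, exact binomial 95% interval 25.3% to 35.7%, counting error only). That interval takes peaks as independent, although 43 head-only peaks had another head-only summit within 2000 bp. The X holds 17.7% of bases, and 12 of the 75 shared peaks (16.0%) and 17 of the 135 embryo peaks (12.6%). The share on the X was 17.5% among the 80 peaks with the lowest folds and 38.0% among the 79 with the highest. Median fold was 3.28 for head-only peaks of the X and 2.76 for those of the autosomes. Of the strain-differing transcripts named here, roX1, roX2 and w lie on the X and Tektin-C lies on 3L. The dosage compensation RNA roX2, which is specific to males, stood at 69.6 and 74.6 FPKM in wild-type heads (mock and irradiated) and at 3.06 and 3.17 FPKM in mutant heads. In embryos roX2 stood at 11.0 and 7.91 FPKM in the wild type and 0.610 and 0.760 FPKM in the mutant. The related RNA roX1 stood at 165 and 173 FPKM in wild-type heads and at 119 and 110.5 FPKM in mutant heads. Markers of the testis and accessory gland, 4 genes, summed to 0.880 and 0.447 FPKM in wild-type heads and to 100.9 and 73.0 FPKM in mutant heads, the opposite direction to roX2. Tektin-C alone made up 69.0 and 72.8 FPKM of the mutant sums, and Mst57Db and SP were listed at 0 in irradiated mutant heads. Tektin-C also differed in embryos, at 1.30 and 2.17 FPKM in the wild type and 37.3 and 41.3 FPKM in the mutant. The sum is therefore mostly a strain difference of 1 gene. The pigment gene w stood at 1.02 and 1.02 FPKM in wild-type heads and at 7.86 and 7.10 FPKM in mutant heads. The part of sex composition or strain background in the share of the X was not tested.

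**Figure D3:**
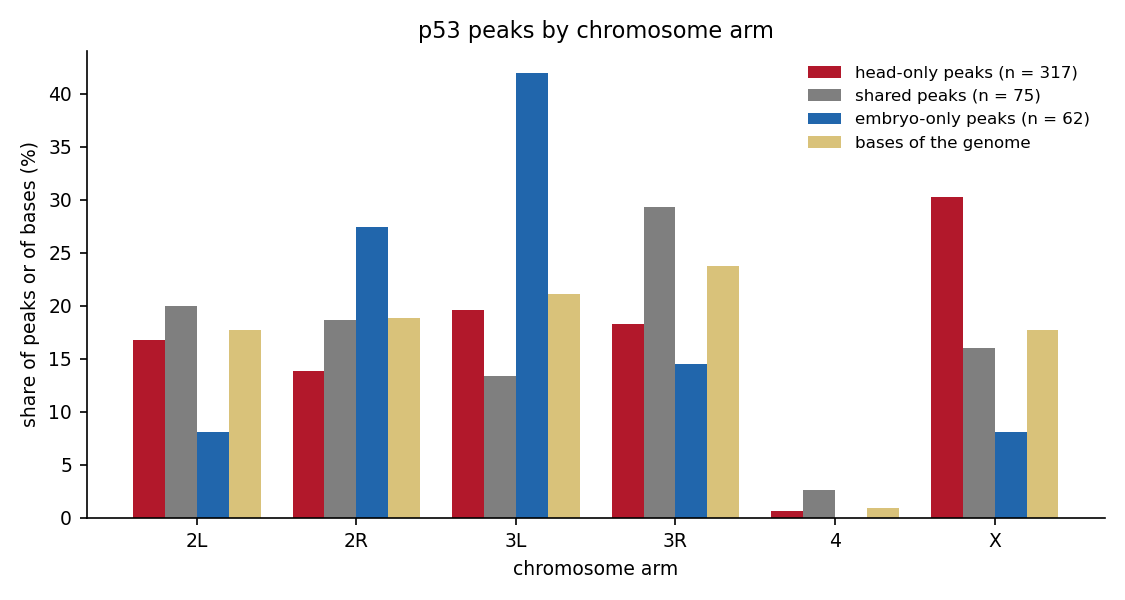
Share of peaks in percent (bars from 0) by chromosome arm for head-only, shared and embryo-only peaks, beside the share of genome bases. The X chromosome has 30.3% of head-only peaks against 16.0% of shared peaks and 17.7% of bases.

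The strongest head-only peak, X:6192340-6193260 with a fold of 14.5, had its summit 118 bp upstream of the start of Ca-alpha1T, which encodes a T-type calcium channel. Ca-alpha1T stood at 33.7 FPKM in wild-type mock heads and 1.48 FPKM in wild-type mock embryos. The next, X:15911845-15912363 with a fold of 13.04, lay in a 5′ UTR of CG8909 (Lrp4 in Ensembl), a receptor of the LDL receptor family, at 35.4 FPKM in heads and 0.780 FPKM in embryos. An intron of rdx (roadkill), an adaptor of the cullin ubiquitin ligase that acts in Hedgehog signalling, held 3R:14024603-14025605 with a fold of 11.3, and rdx stood at 35.1 FPKM in heads and 191 FPKM in embryos. The head and embryo tables were normalised separately, so levels of the 2 tissues are set side by side and no fold is taken between them.

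The next peaks by fold lay on CG3714 (Naprt, of NAD synthesis) at 11.2, on CG1504 at 10.2 and on CG14521 (DIP-gamma, a cell surface protein of the immunoglobulin family) at 9.58. They were followed by Cct1 (Pcyt1, of phosphatidylcholine synthesis) at 9.25, p115 (a vesicle tether of the Golgi) at 8.82, CG4502 at 8.06 and mod(mdg4), an insulator protein gene, at 7.99. The splicing regulator ps (pasilla) followed at 7.80 and nAChRalpha6, a subunit of the nicotinic acetylcholine receptor, at 7.79. Then came 2 peaks upstream of genes, at CG4297 (7.60) and CG3184 (7.57), and a peak at 7.68 that lay 1412 bp from the nearest start, that of CG42831. The first 20 end with CG10384 at 7.42, Amun at 7.40, the clock gene per at 7.24, the RNA-binding protein gene shep at 7.23 and Rbp9, a neuronal RNA-binding protein of the ELAV family, at 6.88. Within this set, levels in wild-type mock heads ran from 2.50 FPKM for CG1504 to 340 FPKM for Rbp9, and Ca-alpha1T, nAChRalpha6, CG14521, CG8909, CG4297, CG10384 and per were at or below 1.49 FPKM in wild-type mock embryos.

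At the edge of the rule, the smallest gap to an embryo peak was 32 bp, at a peak in an intron of kat80 (X:16273845-16274252, fold 2.30), followed by 54 bp at Sec31 and 125 bp at CG4281. Just outside the rule, the smallest overlaps were 78 bp at CG31705, 117 bp at CG3984 and 126 bp at Tdg. In all 11 head-only peaks had an embryo peak within 500 bp and 29 within 5 kb, and the median gap was 476 kb. Head-only peaks were also close to each other, since 43 had another head-only summit within 2000 bp.

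The p53 gene itself had a head-only peak. It lay at 3R:23054020-23054224 with a fold of 2.30 and its summit 68 bp upstream of a p53 start, beside a shared peak at 3R:23053047-23053644 with a fold of 9.80. Since the mutant allele removes part of p53, bound protein and DNA missing from the background cannot be told apart at this locus. Of the other 14 genes on a list of p53 targets known in fly embryos, none had a head-only peak within 5 kb. Corp, W (hid), Xrp1 and egr had a shared peak in or at their locus instead. An embryo-only peak lay 1.87 kb from W and another 4.65 kb from rpr.

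Genes under the summits were taken first from the locus column of the RNA tables, which gives 493 genes under 241 summits (76.0%). This column joins overlapping genes into bundles. Of the 16510 rows of a table, 7586 share their locus with another row, and up to 18 genes lay under 1 summit, at mod(mdg4). Where the gene's own span in Ensembl was used instead, 232 of the 493 genes, 220 of them protein coding, held a summit, under 240 peaks. The other 261 genes were neighbours in a bundle and had a median of 0.671 FPKM in wild-type mock heads. Results below are for the 232 genes, with values for the 493 beside the counts.

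Genes that held a head-only summit were broadly expressed in both tissues. Their median level was 37.9 FPKM in wild-type mock heads, against 12.2 FPKM for all protein-coding genes, and 29.8 FPKM in wild-type mock embryos, against 7.55 FPKM. The 56 genes that held a shared summit had like medians, 39.3 FPKM in heads and 31.8 FPKM in embryos. High levels in both tissues were therefore not particular to genes with head-only summits. For the 493 genes of the locus column the medians were 15.3 and 7.67 FPKM. In all, 215 of the 232 (92.7%) reached 1 FPKM in at least 1 library of both tissues, against 65.1% of protein-coding genes. Only 9 (3.88%) reached it in heads alone, against 8.20% of protein-coding genes. These were CG14521, CG42261 (fid), CG6123 (kairos), NnaD, eag, jim and per and the non-coding CR45039 and CR45135. Sr-CII, a scavenger receptor gene, and CR45525 reached it in embryos alone, and Sr-CII stood at 104 FPKM in wild-type mock embryos and 0.0580 FPKM in wild-type mock heads. The genes were long, with a median of 14.2 kb against 1.86 kb for all genes, which bears on how often a summit can fall inside one. Genes with a summit within 500 bp of their start numbered 186 and had medians of 30.4 FPKM in heads and 24.9 FPKM in embryos.

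Since FPKM cannot be compared across the tables, each gene was also ranked within its table. The median percentile of the 232 genes was 79.4 in wild-type mock heads and 75.2 in wild-type mock embryos, where 50.0 is the middle of all genes. In 41 genes (17.7%) the percentile was at least 25 points higher in heads, against 12.5% of protein-coding genes, and in 13 (5.60%) at least 25 points higher in embryos, against 10.1%. The widest gaps towards heads were those of Syp, an RNA-binding protein gene (87.9 against 36.4), CG3523, the fatty acid synthase FASN1 (97.4 against 46.2), Rbp9 (98.4 against 48.8) and Pkc53E, a protein kinase C (85.6 against 38.3). The widest gaps towards embryos were those of Sr-CII, CG42507, the kinesin gene neb and wech. Most members, 178 of 232, had percentiles less than 25 points apart in the 2 tissues.

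**Figure D4:**
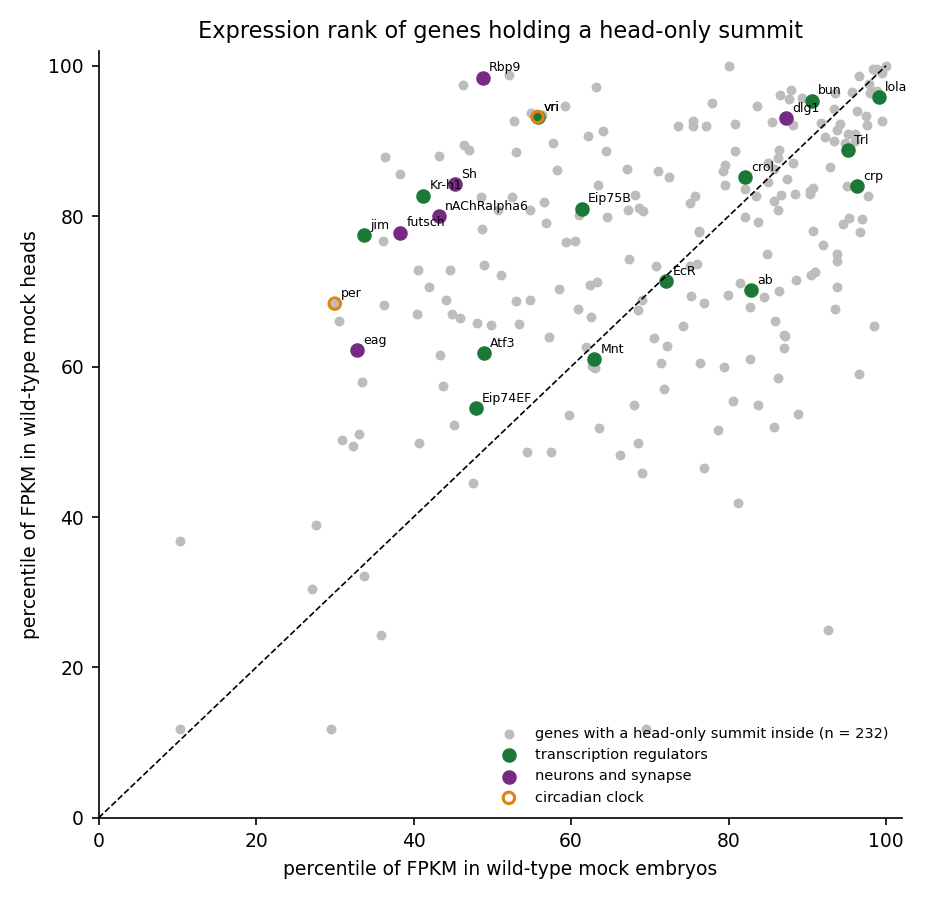
Percentile of FPKM among all genes in wild-type mock heads (vertical axis) against wild-type mock embryos (horizontal axis) for the 232 genes that hold a head-only summit, 1 point per gene, with 3 gene lists coloured and the dashed line marking equal rank. Median percentiles are 79.4 and 75.2, and the labelled neuronal genes lie between 62.2 and 98.4 in heads and, other than dlg1, between 32.9 and 48.8 in embryos.

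The 10 most abundant members in heads began with Desat1. This gene, which encodes a fatty acid desaturase, stood at 1440.5, 1449, 1269 and 1315 FPKM in wild-type mock, wild-type irradiated, mutant mock and mutant irradiated heads, and at 40.5 to 57.3 FPKM over the 4 embryo libraries. The translation elongation factor Ef1alpha48D stood at 1300 to 1544 FPKM in heads and 3038 to 3586 FPKM in embryos. The ferritin subunits Fer1HCH and Fer2LCH, which store iron, ranged from 638 to 867 and from 620.4 to 993 FPKM over the head libraries. Both ferritin genes were lowest in irradiated wild-type heads and higher in both mutant libraries than in either wild-type one. The other genes of the first 10 were CR42862, the histone gene His4r, the second elongation factor gene Ef1alpha100E, the kinase gene Lk6, Rbp9 and the proton pump subunit Vha16-1.

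Transcription regulators were the list with the most members. Of its 82 measured genes 14 (17.1%) held a head-only summit, against 1.41% of all genes, and the list's median gene length was 26.9 kb. They include EcR, the ecdysone receptor, and genes that respond to ecdysone or juvenile hormone, Eip74EF, Eip75B, crol and Kr-h1. They also include the BTB zinc finger genes ab and lola, the GAGA factor gene Trl, the bZIP genes Atf3 and vri, and the basic helix-loop-helix genes crp and Mnt. The remaining members are bun and jim. By the bundled locus alone, br and usp would be added. Kr-h1, with a summit 26 bp inside its start, stood at 46.2, 42.1, 39.7 and 46.2 FPKM in wild-type mock, wild-type irradiated, mutant mock and mutant irradiated heads, and at 1.15 to 2.65 FPKM in embryos. EcR stood at 18.7 to 25.5 FPKM in heads and 24.6 to 26.6 FPKM in embryos, so the list spans genes with like and unlike levels in the tissues. Eip75B stood at 35.5 to 41.7 and 11.1 to 15.4 FPKM. After radiation the 14 genes had a median log2 difference of -0.03 in wild-type heads. In wild-type embryos the median was 0.02 over the 13 that reached 1 FPKM. In the 8 comparisons described below only crp passed 2-fold, and only once.

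Of 51 measured genes of neurons and synapses 6 (11.8%) held a head-only summit, and the list's median length was 27.7 kb. Rbp9 stood at 340, 324, 279 and 292 FPKM in wild-type mock, wild-type irradiated, mutant mock and mutant irradiated heads, and at 2.79 to 3.09 FPKM in embryos. The potassium channel genes Sh and eag stood at 36.2 to 50.2 and 11.2 to 16.2 FPKM in heads and at 1.78 to 2.14 and 0.380 to 0.540 FPKM in embryos. The microtubule-associated futsch had a summit 124 bp inside its start and stood at 26.8 to 35.0 FPKM in heads and 0.480 to 1.00 FPKM in embryos. The receptor subunit gene nAChRalpha6 stood at 31.0 to 39.1 and 1.18 to 2.42 FPKM. The synaptic scaffold gene dlg1 differed from these, at 92.6 to 108 FPKM in heads and 55.5 to 75.3 FPKM in embryos. The adenylyl cyclase gene rut, a learning gene, had a head-only summit within 500 bp of its start but outside its span. None of the 6 genes passed 2-fold in a comparison of heads. In embryos none of the 5 that reached 1 FPKM did, and eag was too low there to be counted.

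Among 14 clock genes 2 held a summit, per and vri, which encode a core clock protein and a repressor of Clk. The per summit lay 71 bp inside the start, in a peak with a fold of 7.24. In heads per stood at 22.0 FPKM in mock and 29.8 FPKM in irradiated wild type, and at 24.6 and 46.6 FPKM in the mutant. vri stood at 106 and 145 FPKM in the wild type and at 74.0 and 125 FPKM in the mutant. Both were higher in the irradiated library of each strain, by log2 differences of 0.42 and 0.89 for per and 0.45 and 0.75 for vri, below 2-fold. In embryos per stayed between 0.240 and 0.830 FPKM. Of 24 phototransduction genes 1 held a summit, rdgB, a phosphatidylinositol transfer protein, at 73.6 to 84.3 FPKM in heads.

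Lists without a member are short beside the share of 1.41% of all genes that held a head-only summit, so a count of 0 in one is near that background. None of 15 p53 targets, 13 apoptosis genes, 31 DNA repair genes and 13 genes of the JNK response did, nor any of the measured genes of glia, muscle, heat shock, redox, starvation and autophagy, immune, early zygotic, maternal, digestive and ribosomal protein lists. Median gene length was 2.53 kb for p53 targets, 2.52 kb for apoptosis, 2.89 kb for DNA repair, 9.02 kb for the JNK response, 7.05 kb for glia and 4.99 kb for muscle, against 1.86 kb for all genes, 4.84 kb for phototransduction and 9.79 kb for clock genes. At starts, Gadd45, a stress gene of the DNA repair and JNK lists, had a summit 353 bp upstream (2R:7248653-7248904, fold 3.02), and Hsp68, a heat shock chaperone, one within 500 bp. Gadd45 stood at 23.9, 34.4, 35.9 and 44.5 FPKM in wild-type mock, wild-type irradiated, mutant mock and mutant irradiated heads, and at 1.40 to 3.31 FPKM in embryos. Its differences after radiation were 0.51 in wild-type and 0.30 in mutant heads, below 2-fold.

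Several genes held more than 1 head-only summit. There were 25 with at least 2 and 7 with at least 3. The chromatin kinase gene tlk (Tousled-like kinase) had 4, with folds of 2.27 to 3.19. Amun, CG11138, crp, fok, the fok neighbour neb and the corepressor gene Smr had 3 each. In Smr the folds were 6.66, 5.90 and 4.73, and Smr stood at 2.73 to 3.13 FPKM in heads and 15.4 to 27.9 FPKM in embryos. fok and neb overlap and share their 3 summits, yet fok stood at 136 to 150 FPKM in heads and neb at 1.19 to 1.59 FPKM. In 13 genes a shared summit lay beside the head-only ones, among them crp, ctrip, kat80, Mnt, Sec31 and tlk.

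The RNA comparisons asked whether these genes differ after radiation or between strains. A gene was counted at a 2-fold difference on the scale of log2(FPKM + 1), which understates changes of low genes, if it reached 1 FPKM in at least 1 of the 4 libraries of the tissue. That left 224 of the 232 genes in heads and 217 in embryos. The comparisons within a tissue share libraries.

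Few of them passed 2-fold after radiation in heads. In wild-type heads 1 of 224 genes was higher and 1 lower (4 and 2 of 361 by locus), where 1.52% and 0.487% of all genes were. CG15456 went from 7.16 to 17.99 FPKM and the antisense RNA CR45135 from 6.14 to 1.41 FPKM. CG15456 rested on about 25 and 84 fragments, and its ratio had counting limits of 1.59 and 4.10. In mutant heads 1 was higher and 0 lower (3 and 2 by locus), where 0.637% and 0.731% of all genes were. That gene, CG42507, was listed at 0 in the other 3 head libraries and at 2.87 FPKM in the irradiated mutant, and it overlaps Trl. The 5 digestive markers summed to 138 FPKM in irradiated wild-type heads and to 2.43 to 6.17 FPKM in the other head libraries, and their part in these counts was not tested. The median difference of the 224 genes was -0.03 in wild-type and -0.07 in mutant heads, where all genes had 0.01 and -0.04.

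In wild-type embryos 4 of 217 genes were higher after radiation and 0 lower (7 and 1 of 352 by locus), where 1.32% and 0.892% of all genes were, so the share that rose, 1.84%, lay near the background. Of genes with a start within 500 bp of a head-only summit 6 of 170 (3.53%) were higher and 0 lower, the same 4 with p53 and CR44381. Both p53 and CR44381 also hold a shared summit, so a peak of the embryo list lies there too. Of genes that held a shared summit 4 of 54 (7.41%) were higher and 0 lower. The largest difference was that of CG12194, which has a head-only peak at 2L:4838638-4839091 (fold 4.58, summit 349 bp inside its start). It stood at 11.9 FPKM in mock and 60.0 FPKM in irradiated wild-type embryos, and at 13.3 and 14.6 FPKM in mutant embryos. The log2 difference was 2.24 in the wild type, where the ratio had counting limits of 4.57 and 5.57, and 0.12 in the mutant. In heads CG12194 stood at 82.2, 76.3, 83.4 and 78.1 FPKM. The irradiated wild-type embryo thus stands apart from the other embryo libraries, while the 4 head libraries lie close together. Digestive markers also differed between the embryo libraries, with 5 genes summing to 5.06 and 38.9 FPKM in mock and irradiated wild-type and to 51.5 and 107 FPKM in mutant embryos. Their part in the result was not tested.

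CG1504 carries the fifth strongest head-only peak (X:20330047-20330621, fold 10.2) with its summit 52 bp inside the start, and the nearest embryo peak is 698 kb away. It stood at 2.42 and 12.0 FPKM in mock and irradiated wild-type embryos, at 1.90 and 1.81 FPKM in the mutant, and at 0.985 to 2.50 FPKM in heads. The difference was 1.93 in wild-type embryos and -0.18 in wild-type heads. CG1718 (Abca3, a transporter of the ABC family) has a peak at X:21306150-21306448 (fold 3.81) in its 5′ UTR. It went from 10.3 to 23.5 FPKM in wild-type embryos, a difference of 1.12, and stood at 12.6 and 13.6 FPKM in mutant embryos and 32.9 to 39.0 FPKM in heads. Ef1alpha100E (eEF1alpha2) has a peak at 3R:31738744-31739062 (fold 2.38) in an intron. It went from 4.21 to 10.7 FPKM in wild-type embryos, a difference of 1.17, stood at 6.29 and 6.05 FPKM in mutant embryos and was 381 to 415 FPKM in heads. In each of the 4 genes the irradiated wild-type embryo was the highest of the 4 embryo libraries. That it exceeds the mock wild-type embryo follows from how the 4 genes were picked.

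A further pair, named after their values were seen, lay below the threshold for the radiation response. CG14441, with a peak 40 bp inside its start (X:6699238-6699740, fold 6.23), stood at 9.59 and 19.1 FPKM in wild-type and 9.50 and 9.33 FPKM in mutant embryos, and at 6.39 to 8.64 FPKM in heads. scyl, an inhibitor of TOR signalling, has a peak whose summit lies 415 bp upstream of its start (3L:11251764-11252078, fold 3.21). It stood at 209.6 and 382 FPKM in wild-type and 142 and 140.2 FPKM in mutant embryos, and at 24.4 to 48.3 FPKM in heads. Their differences after radiation in wild-type embryos were 0.93 and 0.86. Between the strains, scyl was lower past 2-fold in irradiated mutant embryos, and it was also lower in mock mutant than in mock wild-type embryos.

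**Figure D5:**
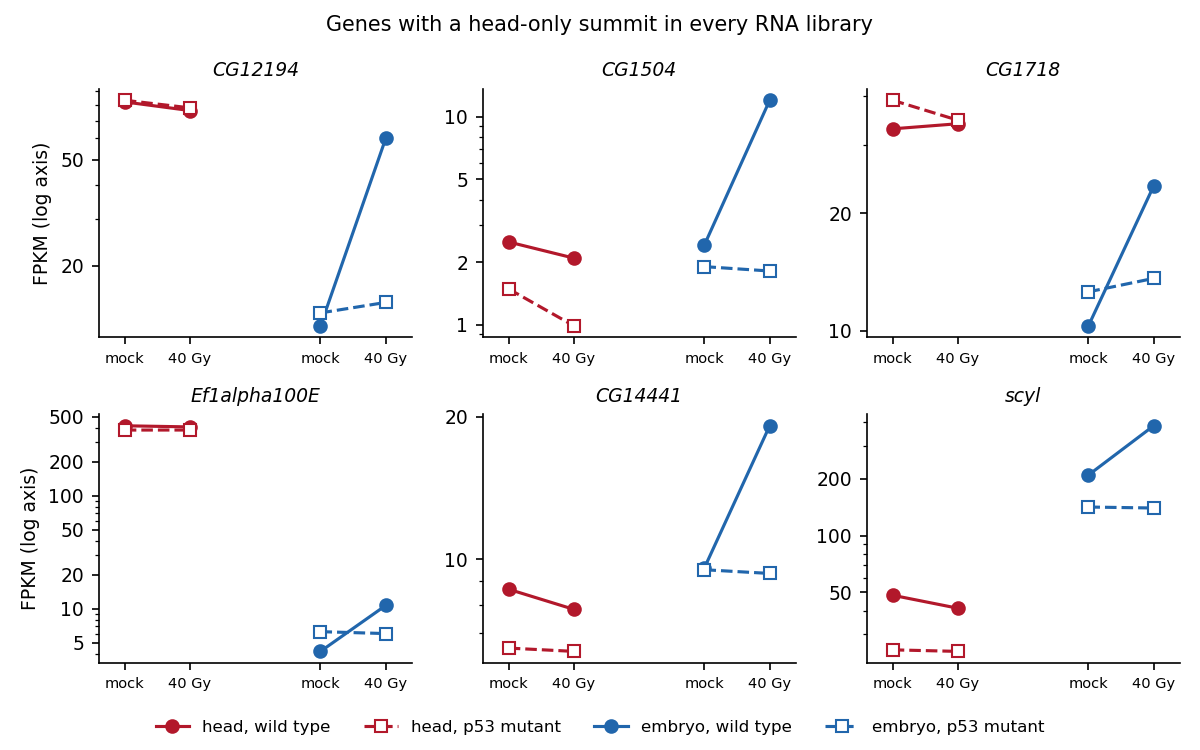
FPKM on a log axis in each of the 8 RNA libraries for 6 genes with a head-only summit inside or near their start, heads in red and embryos in blue, wild type as filled circles with solid lines and the p53 mutant as open squares with dashed lines, 1 library per point. In each panel the irradiated wild-type embryo is the highest embryo library, as for CG12194 at 60.0 FPKM against 11.9 to 14.6 FPKM. The genes were picked for a rise in that library, CG14441 and scyl after their values were seen, so the common pattern largely follows from the choice.

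In mutant embryos 0 of 217 genes were higher and 0 lower after radiation (1 and 3 by locus), where 1.02% and 0.948% of all genes were. With 1 library a group no unadjusted p-value exists beside these counts. The median difference was 0.12 in wild-type embryos, with quartiles of -0.02 and 0.28, and -0.02 in mutant embryos, where all genes had 0.02 and 0.04. Genes that held a shared summit had medians of 0.23 in wild-type and -0.04 in mutant embryos, so the shift was not particular to head-only summits. The difference between the strains' responses was counted at 2-fold, and every member counted had also passed 2-fold in the wild type. These members were thus already picked by the wild-type comparison, and their counts are not a separate result. In embryos 4 of 217 genes passed upwards, the same 4 as above, where 93 of 10654 genes (0.873%) did, and 0 downwards, where 0.460% did. In heads 1 of 224 genes (0.446%), CG15456, passed upwards and 1, CR45135, downwards, where 1.29% and 0.319% of all genes did. CG42507, with a difference of 1.95 in mutant heads and listed at 0 in wild-type heads, is not among them. The counts thus do not cover responses in the mutant alone.

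Between mock-treated strains in heads, 0 genes were higher in the mutant and 4 lower (9 and 14 by locus), where 4.33% and 3.26% of all genes were. kat80, the regulatory subunit of the microtubule-severing katanin, stood at 56.8 and 59.4 FPKM in mock and irradiated wild-type heads and at 19.8 and 20.1 FPKM in the mutant. The difference between mock heads was -1.48, and the ratio had counting limits of 0.320 and 0.378. kat80 holds 2 head-only summits and a shared one, and in embryos it stood at 23.2 and 24.2 FPKM in the wild type and 15.9 and 14.7 FPKM in the mutant. CG3987 and the antisense RNAs CR43833 and CR45135 were the others, at 4.92 to 6.14 FPKM in mock wild-type heads. Among irradiated heads 1 gene was higher and 4 lower (4 and 15 by locus), where 3.79% and 4.31% were. comm (commissureless), which controls the axon guidance receptor Robo, joined kat80, CG3987 and CR43833, at 38.6 and 40.9 FPKM in the wild type and 21.5 and 18.5 FPKM in the mutant.

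Between mock-treated embryos 4 genes were higher in the mutant and 3 lower (15 and 6 by locus), where 4.94% and 2.44% of all genes were. The higher genes were CG14434, CG4502, CG7694 and CR43870, and CG15456 and CG9205 were among the lower ones. The 4 maternal markers summed to 17.5 and 20.2 FPKM in mock and irradiated wild-type embryos and to 36.9 and 41.9 FPKM in mutant embryos, and their part in the strain differences was not tested. Among irradiated embryos 3 genes were higher and 8 lower (10 and 14 by locus), where 6.43% and 3.05% were. The lower genes included CG12194, CG1504, CG34401, CG9205, CR43833, crp and ctrip. crp stood at 177 and 185 FPKM in wild-type and 96.8 and 85.4 FPKM in mutant embryos, and ctrip, a ubiquitin ligase gene, at 118 and 167 against 89.8 and 76.2 FPKM. Of these, crp and ctrip also hold a shared summit, so a peak in the embryo list lies in the same gene. The median of the 217 genes was -0.16 in this comparison, where all genes had 0.01 and genes that held a shared summit had -0.41.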

How the data were processed

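RNA values are FPKM, which the authors deposited in 1 table per tissue together with columns of log2 fold changes, made with cutadapt, TopHat2, Picard, SAMtools and Cuffdiff on dm6 per the submitters' processing notes. The deposited log2 columns were not used. Chromatin peaks were called by the authors with Bowtie2 and MACS2 per the same notes. The deposited lists give a fold (ratio), a score, a −log10 p-value and a −log10 q-value per peak and the offset of its summit. Tool versions and calling thresholds: not given in the sources used here.

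Peaks were compared by overlap of at least 1 bp. Genes under summits were taken from the locus column and, chosen after seeing the data, from gene spans and starts of Ensembl release 115, which uses dm6 coordinates and matched 16244 of 16510 rows. Differences are of log2(FPKM + 1), so the pseudocount is 1 FPKM, and were counted at 2-fold for genes that reached 1 FPKM in any of the 4 groups. Depth was read from FPKM steps of genes with 1 transcript of 800 to 3000 bp shortened by 150 bp. Over 6 such offsets it was 9.14 to 16.6 M in heads and 16.9 to 26.9 M in embryos. Counting intervals are exact, at 95%, and cover counting error only. Overlap and counting steps were tested on simulated data. Python 3.11.15, pandas 2.3.3, numpy 2.4.6, scipy 1.17.1 and matplotlib 3.10.9 were used.

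The members, the 18 gene lists and the rule for named genes were chosen with earlier results of these data known. The rule named genes under the 20 highest folds, up to 10 rises and falls of each comparison at 5 FPKM, list members, genes with several summits, the 10 highest levels in heads and peaks at the edge of the rule. Gene symbols are those of the tables. Genes outside it were named after their values were seen. Sequences of the peaks were not analysed here, and 1 gene that the rule names is not reported here.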

Additional observations from a re-analysis of the deposited data

Results flagged for a closer look

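The head list held 2 peaks on the mitochondrial genome, with folds of 1.44 and 1.79, where the embryo list has no peak. They were singled out because they lie outside the nuclear genome that the gene comparisons use. Both count among the 317 head-only peaks, both have lower folds than the median of 2.89, and no control other than the mutant library in the fold exists for them.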

How the results depend on the processing

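Of 123 recomputed values 71 stayed close to the reported ones, and those that moved are given here. Where a setting changes the set of peaks or genes, more or fewer were counted, and elsewhere the cause was not tested. The number of head-only peaks moved only when a fold of 4 was required, to 76. The share of peaks with a gene under the summit rose to 92.4% with loci extended by 1000 bp and to 86.1% with any overlap of peak and locus. The number of genes, 493 by locus, was 232 by the gene's own span and 186 by a start within 500 bp. Median FPKM in heads was 24.2 with the shortest locus of each summit, 37.9 by own span and 30.4 by start, against 15.3, and in embryos 13.1, 29.8 and 24.9, against 7.67. Expressed genes then numbered 173, 224 and 181 in heads, against 361, and 168, 217 and 170 in embryos, against 352.

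Genes past 2-fold numbered 6 and 5 after radiation in wild-type and mutant heads, 23 and 19 between strains in mock and irradiated heads, and in the same order 8 and 4, and 21 and 24, in embryos. A pseudocount of 0.1 FPKM gave 11 and 12 for radiation in heads, 7 for radiation in mutant embryos, and 34 and 39 between strains of embryos. A pseudocount of 5 FPKM gave 1 and 0, 11 and 11, 3 and 1, and 4 and 12. A filter of 5 FPKM gave 1 for radiation in mutant heads and 1 in mutant embryos. Loci extended by 1000 bp gave 10 for radiation in wild-type heads, 29 between irradiated heads, 13 for radiation in wild-type embryos and 32 between mock embryos. Head peaks at a −log10 q of 5 gave 2 for radiation in mutant embryos. Own spans gave 2 and 1, 4 and 5, 4 and 0, and 7 and 11. Starts within 500 bp gave 2 and 0, 6 and 6, 0 for radiation in mutant embryos, and 7 and 9 between strains of embryos. Own spans and starts were chosen after seeing the data.

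No paired analysis was possible because each group has 1 library. The planned search for a motif in the peaks was not run, since no genome sequence was used here. Median centring, which shifted medians by at most 0.04 on the log2 scale, moved none of the 8 counts by over 1.5 times. Counts of a few genes from single libraries carry no error between animals, and low genes such as CG15456 are limited by depth.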
